A study of Mus musculus with 6 samples.

Results

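The genes described here are 10 genes of antigen presentation by major histocompatibility complex (MHC) class II molecules, measured in mouse kidney. They are H2-Aa, H2-Ab1, H2-Eb1, H2-DMa, H2-DMb1, H2-Oa, H2-Ob, Cd74, Ciita and Ctss. Their probes were chosen as the non-control array probes whose listed transcript is a RefSeq transcript of one of these genes, which gave 12 probes of 55681 and 10 genes of the 20284 with a named probe. H2-Ab1 and H2-Ob had 2 probes each and the other genes 1. The kidneys were taken from male mice of C57BL/6, a common inbred strain, with 3 total RNA samples from mice aged 20 months (aged) and 3 from mice aged 2 months (young). No treatment or genotype difference is labelled, and the samples are whole kidney. The samples are described as separate RNA preparations, without a statement that a different mouse supplied each, so the replicate spread behind every p-value may be technical in part.

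Each sample was hybridised to a single-colour Agilent array, and having 3 arrays per age sets the precision of the values. Between 46.3% and 62.8% of probes were well above background on the aged arrays and between 55.3% and 72.9% on the young arrays. All 12 class II probes were well above background on all 6 arrays, so each of the 10 genes was tested. All arrays lay on 1 slide, with aged kidneys hybridised in row 2 and young kidneys in row 1, so that age and position on the slide cannot be told apart. Same-numbered aged and young samples shared a slide column, and differences within columns are given for the genes that passed the test. Kidney identity was plain in the markers: all 9 listed markers of kidney epithelium, among them Umod, Lrp2 and Aqp2, were well above background on every array.

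MHC class II molecules are pairs of an alpha and a beta chain that show peptides from engulfed or endocytosed proteins to CD4+ T cells. The chains assemble on the invariant chain Cd74, which blocks the peptide groove and guides the complex to endosomes. There cathepsin S, encoded by Ctss, trims the invariant chain, and H2-DM, a pair of H2-DMa and H2-DMb1 or H2-DMb2, exchanges the last fragment for a peptide. H2-DO, a pair of H2-Oa and H2-Ob best known from B cells, binds and inhibits H2-DM. Ciita is the coactivator that switches on most of these genes. In the kidney, class II is best known from resident macrophages and dendritic cells, and tubule cells can show it under interferon-gamma. C57BL/6 mice carry an inactive H2-Ea gene, so the H2-Eb1 chain lacks its partner in this strain and H2-Aa with H2-Ab1 forms the class II molecule of the cell surface.

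Class II promoters share an X box, bound by the RFX complex, upstream of a Y box, bound by NF-Y, and Ciita docks on this assembly. Promoter windows from RefSeq (build GRCm38.p6, 250 bases before to 50 after the annotated start) matched 7 of the 10 genes by symbol, in 8 windows. Ciita, Cd74 and H2-Ab1 were not matched. The X box was searched as AGNAAC followed, after any 2 bases, by ATG, and the Y box as ATTGG, both on either strand. The 120 bases before the start are shown for the class II chain genes with a Y box match in this stretch, to set out where these letters matched. Capitals mark the matches.
H2-Eb1, chr17:34305747-34305866, plus strand: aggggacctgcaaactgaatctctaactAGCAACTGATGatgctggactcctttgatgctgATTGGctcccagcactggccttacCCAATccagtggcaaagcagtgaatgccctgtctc
H2-DMb1, chr17:34153071-34153190, plus strand: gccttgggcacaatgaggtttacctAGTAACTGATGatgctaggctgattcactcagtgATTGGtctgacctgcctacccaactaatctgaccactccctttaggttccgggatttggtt
H2-Ob, chr17:34238785-34238904, plus strand: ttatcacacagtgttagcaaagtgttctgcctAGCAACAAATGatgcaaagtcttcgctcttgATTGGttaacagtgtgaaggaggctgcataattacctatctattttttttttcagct
H2-Aa, chr17:34287824-34287943, minus strand: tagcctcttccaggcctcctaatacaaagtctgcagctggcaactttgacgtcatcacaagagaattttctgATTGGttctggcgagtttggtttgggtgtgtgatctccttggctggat
H2-Oa, chr17:34092259-34092378, plus strand: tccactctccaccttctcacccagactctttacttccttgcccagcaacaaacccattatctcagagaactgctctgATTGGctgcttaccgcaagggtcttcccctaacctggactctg
In H2-Eb1, H2-DMb1 and H2-Ob an X box match lay 22, 23 and 20 bases upstream of a Y box match. The last capital stretch of H2-Eb1 is a Y box match on the opposite strand. H2-Aa and H2-Oa held the Y box letters, starting 48 and 43 bases before the start, and not the full X box letters. Upstream of the Y box, H2-Oa held AGCAAC and H2-Aa the similar GGCAAC, both without the ATG that the search required. Of the 2 windows of H2-DMa, 1 held a Y box match, 198 bases before its start, and the Ctss window held neither. Over all 32851 promoter windows, 0.895% held the X box letters and 37.4% the Y box letters. Windows with both, the X box upstream and 10 to 40 bases between them, numbered 6 (0.0183%), a range of distances set after the sequences had been seen. Of these, 4 belonged to class II chain genes, namely H2-Eb1, H2-DMb1, H2-Ob and H2-Eb2, and the other 2 to Alb and Scgb2b20. A match describes letters and does not show binding. The lack of a match does not show that a box is absent, since a box with other letters is missed.

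All 10 class II genes had a higher mean log2 signal in aged than in young kidney, by 0.09 to 0.83, and 3 of them rose past the adjusted p threshold of 0.05: H2-DMa, H2-Oa and Ctss. The threshold was applied to limma p-values adjusted by Benjamini-Hochberg over all 14548 genes tested, of which 1.98% passed in this direction, 1.40% in the other and 3.38% in either. The median change of the 10 genes was 0.40, beside -0.01 over all genes tested. For 8 genes every aged array was above every young array, an arrangement that 10.4% of all tested genes had. The exceptions were H2-Eb1 and Ciita. In whole-kidney RNA, more cells of a type and more RNA per cell cannot be told apart. The count of 3 was 0 without aged replicate 2, where 0.722% of all genes passed as higher, and 0 without young replicate 1 (0.784%). At an unadjusted p under 0.05 these fits had 7 and 4 of the 10 genes. The count was 1 without aged replicate 3 (1.17% of all genes) or young replicate 3 (1.21%). It was also 1 with normexp background correction (1.48%) and with the slide column as a block (1.13%). With no filter on dim probes it was 0 (0.0739%), again with 7 genes at an unadjusted p under 0.05. The main fit had 7 at that unadjusted level, where 7.97% of all genes were higher. The groups were apart for 4 genes with median centring (6.14% of all genes) and for 5 with normexp (10%).

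**Figure D1:**
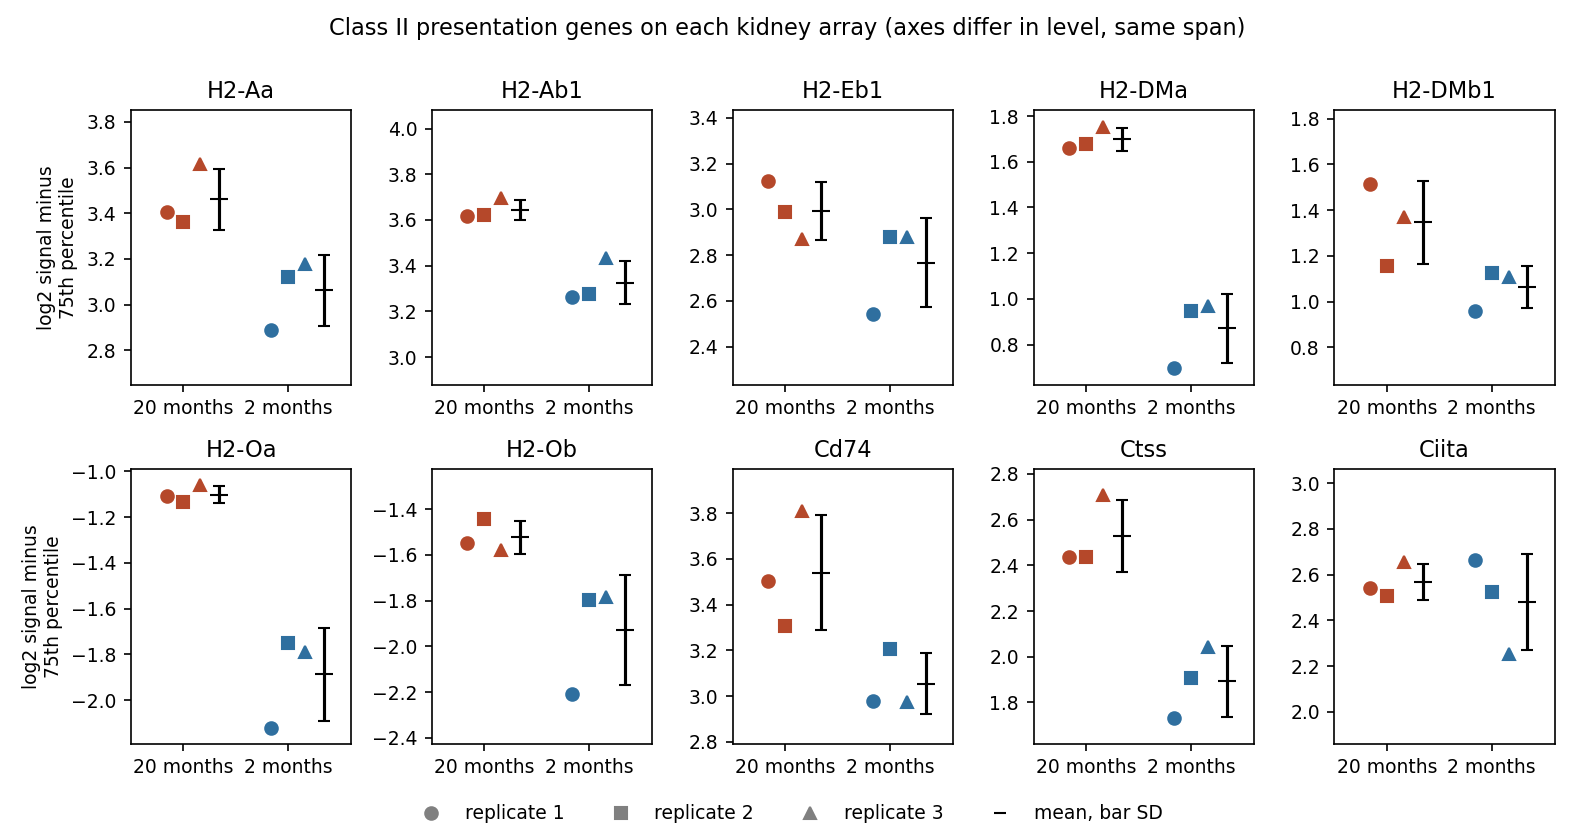
Log2 signal of the 10 class II presentation genes, minus each array's 75th percentile, on the 3 aged (20 months, left) and 3 young (2 months, right) kidney arrays. Symbols mark replicates, bars the mean and SD (n = 3 each), and each panel spans the same log2 range. H2-DMa, H2-Oa and Ctss show the widest gaps between ages, while H2-Eb1 and Ciita overlap.

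The peptide-exchange gene H2-DMa had the largest change of the 10. Its log2 signal, given here and below relative to each array's 75th percentile, was 1.66, 1.68 and 1.75 on aged arrays 1, 2 and 3, and 0.70, 0.95 and 0.97 on young arrays 1, 2 and 3. The aged arrays lay close together and well above all young arrays. H2-DMa averaged 1.70 ± 0.05 in aged and 0.87 ± 0.15 in young kidney (SD, n = 3 each), a 1.77-fold rise (log2 change 0.83 ± 0.11, SE, limma adjusted p = 0.0123). Within slide columns 1, 2 and 3 the aged array was higher by 0.96, 0.73 and 0.79. The adjusted p was 0.0531 without young replicate 1 and 0.0539 without aged replicate 2, and the change stayed between 0.74 and 0.88 whichever array was left out.

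H2-DMb1, the usual beta partner of H2-DMa, had a smaller difference. It had 1.52, 1.15 and 1.37 on aged arrays 1, 2 and 3, and 0.96, 1.13 and 1.11 on the young arrays. Aged array 2 was barely above the highest young array, and the groups did not overlap. The log2 change was 0.28 ± 0.13 (limma adjusted p = 0.306, 95% interval -0.01 to 0.58). The second beta gene, H2-DMb2, had means of -1.95 ± 0.35 in aged and -2.65 ± 0.35 in young kidney (SD, n = 3 each), with overlapping groups and a change of 0.70 ± 0.23 (adjusted p = 0.165, and 0.0361 with median centring). H2-DMb1 and H2-DMb2 are closely related neighbours, and their probes may share signal.

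The 2 chains of H2-DO were likewise higher on every aged array. H2-Oa, the alpha chain, had -1.11, -1.13 and -1.06 on the aged arrays and -2.12, -1.75 and -1.79 on the young arrays. All aged arrays were above all young arrays, and young array 1 was lowest. The gene rose 1.72-fold (log2 change 0.79 ± 0.13, limma adjusted p = 0.0214), with means of -1.10 ± 0.04 in aged and -1.89 ± 0.20 in young kidney (SD, n = 3 each). Within slide columns 1, 2 and 3 the aged array was higher by 1.01, 0.62 and 0.73. The call was lost without aged replicate 2 (adjusted p = 0.0776), aged replicate 3 (0.0658), young replicate 1 (0.0677) or young replicate 3 (0.0513), and with normexp (0.0953) or the slide column block (0.0517).

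H2-Ob, the beta chain, was read by 2 probes that differed in the size of the change. The brighter probe, which stood for the gene, had -1.55, -1.44 and -1.58 on the aged arrays and -2.21, -1.80 and -1.78 on the young arrays. The dimmer probe had -2.95, -2.90 and -2.90 on the aged arrays and -3.45, -3.70 and -3.44 on the young arrays. On both probes every aged array was above every young array, as on 8.61% of the 30825 probes tested. The change was 0.41 ± 0.14 for the brighter probe (limma adjusted p = 0.192 over genes) and 0.61 ± 0.12 for the dimmer (limma adjusted p = 0.0560 over these probes).

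The difference in change between the partner chains was tested over the 6 arrays, in 3 pairs, with a 2-sided exact permutation test whose smallest possible p is 0.1. The log2 change of H2-DMa exceeded that of H2-DMb1 by 0.54 ± 0.12 (SE, exact p = 0.1, adjusted over the 3 pairs 0.15). That of H2-Oa exceeded that of H2-Ob by 0.38 ± 0.07 (exact p = 0.1, adjusted 0.15), a difference that was 0.11 with normexp and 0.17 ± 0.18 (exact p = 0.4) with the other H2-Ob probe. At 0.15, neither difference passed. For both pairs, with the brighter H2-Ob probe, the alpha minus beta value was higher on every aged array than on every young array. The pair of H2-Aa and H2-Ab1 differed by 0.08 ± 0.08 (exact p = 0.5, adjusted 0.5).

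H2-Aa and H2-Ab1, the chains of the class II molecule at the cell surface, did not pass the test. Neither did H2-Eb1, which lacks its partner in this strain. H2-Aa, the alpha chain, had 3.41, 3.36 and 3.61 on the aged arrays and 2.89, 3.12 and 3.18 on the young arrays. The groups did not overlap, and the log2 change was 0.40 ± 0.13 (limma adjusted p = 0.158, 95% interval 0.11 to 0.69). H2-Ab1, the beta chain, had 3.62, 3.62 and 3.70 on the aged arrays and 3.26, 3.28 and 3.43 on the young arrays with its brighter probe. This was a change of 0.32 ± 0.10 (limma adjusted p = 0.165), and its other probe gave 0.29 ± 0.11. The 95% interval of H2-Ab1 was 0.08 to 0.56. H2-Eb1 had 3.12, 2.99 and 2.87 on the aged arrays and 2.54, 2.88 and 2.88 on the young arrays. Aged array 3 lay just below the upper young arrays, and the change was 0.23 ± 0.13 (limma adjusted p = 0.445). Without young replicate 1 it was 0.11.

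Cd74, the invariant chain, had 3.50, 3.31 and 3.81 on the aged arrays and 2.98, 3.21 and 2.97 on the young arrays. The ages did not overlap, but the aged arrays were spread widely, with an SD of 0.25. The change was 0.49 ± 0.15 (limma adjusted p = 0.151), from 0.35 without aged replicate 3 to 0.60 without aged replicate 2, and it passed with a trended, robust variance (adjusted p = 0.0466). Ctss, whose protease trims the invariant chain, had 2.44, 2.44 and 2.71 on the aged arrays and 1.73, 1.91 and 2.04 on the young arrays. All aged arrays were above all young arrays. Ctss rose 1.55-fold (log2 change 0.64 ± 0.13, limma adjusted p = 0.0452), with means of 2.53 ± 0.16 in aged and 1.89 ± 0.16 in young kidney (SD, n = 3 each). Within slide columns 1, 2 and 3 the aged array was higher by 0.71, 0.53 and 0.67. Its call held in 1 of 6 leave-one-out fits, that without aged replicate 1, with an adjusted p of up to 0.174 in the others, and the adjusted p was 0.0794 in the fit over single probes, where H2-DMa (0.0196) and H2-Oa (0.0355) passed among the 1.48% of probes that were called higher.

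Ciita, the coactivator of class II transcription, showed no such gap. It had 2.54, 2.51 and 2.66 on the aged arrays and 2.67, 2.52 and 2.25 on the young arrays. The groups overlapped, and young array 1, the lowest array for 8 of the 10 genes, was the highest array for Ciita. The change was 0.09 ± 0.13 (limma adjusted p = 0.792, 95% interval -0.22 to 0.39), with the aged array lower by 0.12 and 0.02 in slide columns 1 and 2 and higher by 0.40 in column 3. The change was -0.03 without young replicate 3. Ciita is known to use several promoters in different cell types, and its 1 probe does not separate their transcripts. That probe was brighter than the H2-DMa probe on every array, and no second Ciita probe was there to compare. Whether it reads Ciita alone was not tested.

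**Figure D2:**
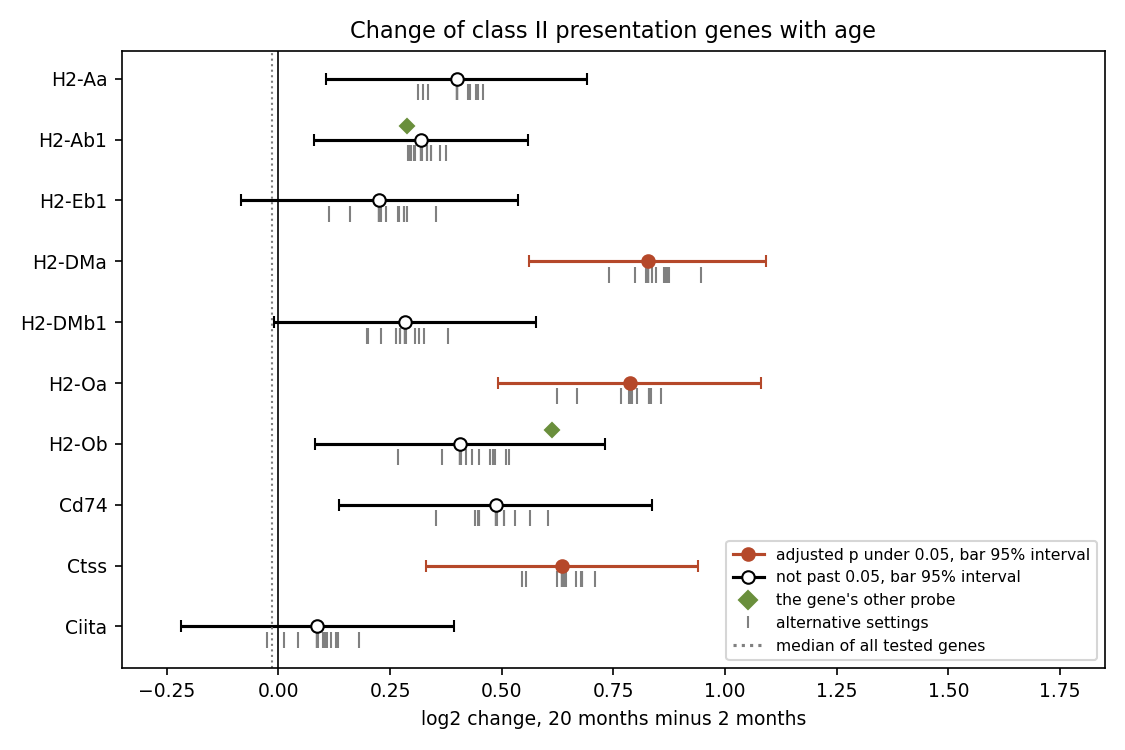
Log2 change of the 10 class II presentation genes, 20 months minus 2 months, with 95% intervals from limma (circles and bars), the other probe of H2-Ab1 and H2-Ob (diamonds) and the values under the alternative settings (ticks). H2-DMa, H2-Oa and Ctss, filled, passed the adjusted p threshold, and the intervals of H2-Eb1, H2-DMb1 and Ciita include 0.

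Across the arrays, young array 1 stood lowest and aged array 3 highest for most of the genes. Each gene was centred on its own mean over the 6 arrays. The mean of the 10 centred profiles was 0.22, 0.16 and 0.29 on aged arrays 1, 2 and 3, and -0.35, -0.15 and -0.17 on young arrays 1, 2 and 3. Young array 1 was the lowest of the 6 for 8 genes, and aged array 3 was the highest for 6. Without young replicate 1 the median change of the 10 genes was 0.30. The 2 exceptions to the low young array 1 were Cd74, for which young array 3 was level with it, and Ciita. The profile of Ciita lay farthest from the mean profile, with a root mean square difference of 0.25, and that of H2-Aa closest, at 0.06.

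Among the other 14538 genes tested, the 5 with the profile closest to the mean of the class II genes over the 6 arrays were Lat2, Bcorl1, Ift81, Podn and Nt5c2. Their root mean square differences from it were 0.04 to 0.06. Lat2, a membrane adaptor of immune receptor signalling in blood cells, was closest, with centred values of 0.18, 0.20 and 0.33 on the aged arrays and -0.35, -0.15 and -0.22 on the young arrays. None of these 5 genes passed the limma threshold (adjusted p from 0.0617 to 0.126), with changes of 0.38 to 0.48. They were picked by their profile over the same 6 arrays, so changes of this size follow from the choice.

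**Figure D3:**
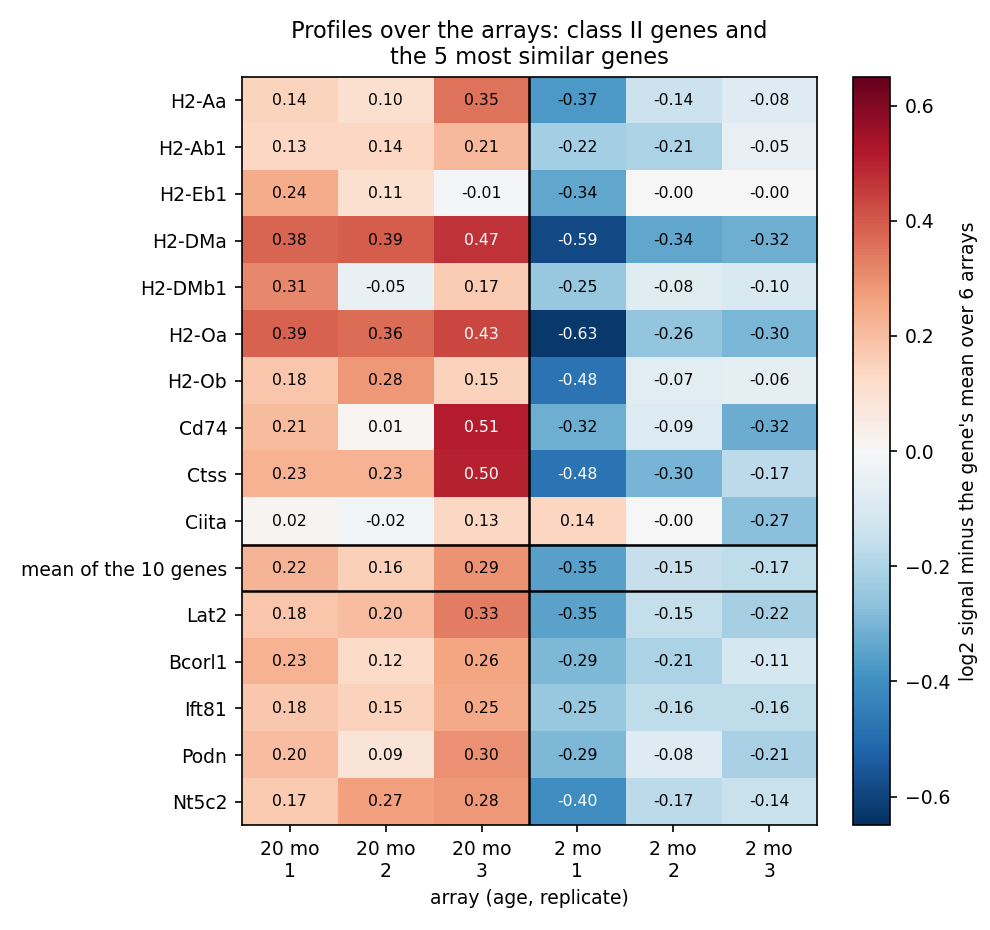
Log2 signal of the 10 class II genes, their mean and the 5 genes with the most similar profile, each centred on its own mean over the 6 arrays, for aged (20 mo, left) and young (2 mo, right) replicates 1 to 3. Young array 1 is the lowest column for 8 of the 10 genes, while Ciita has 0.14 there.

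The other listed genes of the pathway did not pass the test when each was read by its brightest probe, and 1 of their other probes, for Marchf1, did. Of 36 listed genes, 35 had a named probe and 32 were tested. With limma 0 were called in either direction, 2 were higher and 0 lower at an unadjusted p under 0.05, and their median change was 0.05. Over all genes 7.97% were higher and 9.18% lower at that unadjusted level. The 2 were H2-DMb2 and Ifng, the gene of interferon-gamma, which induces Ciita. Ifng was dim, above background on 2 aged and 3 young arrays, with a log2 change of 0.61 ± 0.19 (adjusted p = 0.154).

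Of the factors that bind the class II promoter, 6 of 7 were tested, with 4 changes above 0 and 2 below, and a median of 0.03. The log2 change of Creb1, which binds beside the X box, was 0.39 ± 0.19 (adjusted p = 0.349), with 0.20 without aged replicate 3. Its other probe, also tested, gave -0.04 ± 0.22. The log2 changes of the NF-Y subunits Nfyb and Nfya were 0.18 ± 0.14 and 0.06 ± 0.15. The RFX subunit Rfx5 was too dim to test. In the interferon-gamma arm the values were 0.20 ± 0.15 for the interferon regulatory factor Irf1 and 0.15 ± 0.11 for the kinase Jak2 (adjusted p = 0.550 for both). All 8 listed genes of this arm were tested, with 5 changes above 0, 3 below and a median of 0.07.

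The 9 endosomal processing genes had log2 changes from -0.12 to 0.13, beside 0.64 for Ctss. Those of the proteases Ctsd and Ctsb were -0.12 ± 0.10 and -0.12 ± 0.11, and that of Cst3, a cathepsin inhibitor, was 0.13 ± 0.12. Marchf1 and Marchf8, ubiquitin ligases that mark class II for removal, had log2 changes of 0.13 ± 0.13 and -0.02 ± 0.13 by their brightest probes. The brightest Marchf1 probe had 4.92, 5.06 and 5.23 on the aged and 4.90, 4.84 and 5.08 on the young arrays. It was above the kidney marker Umod on every array and far above the other Marchf1 probe. The other Marchf1 probe had -0.48, -0.60 and -0.42 on the aged arrays and -1.44, -1.16 and -1.34 on the young arrays, with all aged arrays above all young arrays. On that probe the signal rose by 0.81 ± 0.12 (limma adjusted p = 0.0230 over all probes), and the mean of the Marchf1 probes gave 0.47 (adjusted p = 0.0715), so the Marchf1 probes disagreed. Among the costimulatory ligands Cd86, Cd40 and Cd274 the values were 0.40 ± 0.21, 0.23 ± 0.16 and 0.20 ± 0.18. Leaving out 1 array gave 0.21 to 0.59 for Cd86, 0.06 to 0.31 for Cd40 and 0.01 to 0.29 for Cd274. Cd80, the fourth ligand tested, was named after its values were seen and went the other way, at -0.31. For the class II receptors Lag3 and Cd4 they were 0.22 ± 0.11 and -0.24 ± 0.31.

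**Figure D4:**
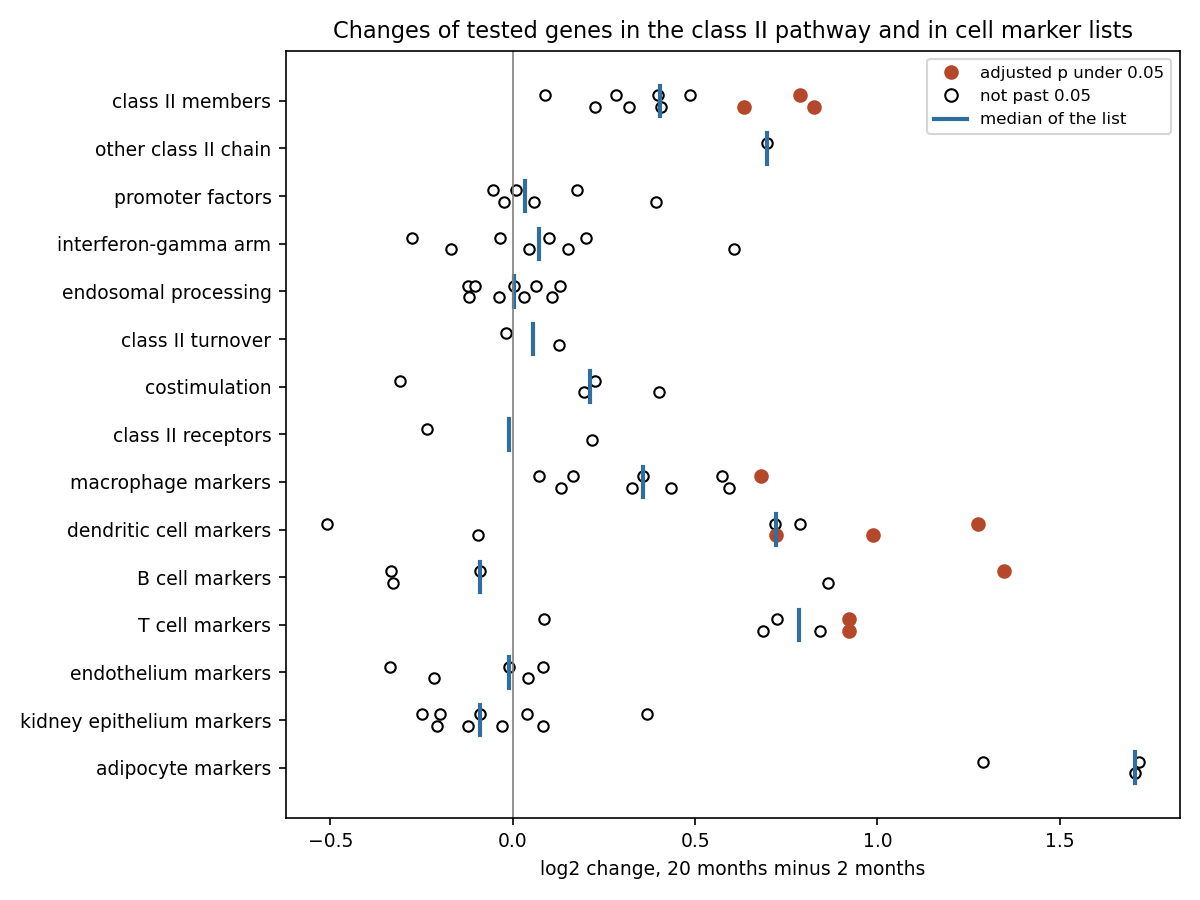
Log2 change, 20 months minus 2 months, of each tested gene (circles) in the class II genes, the other pathway lists and the cell marker lists, with each list's median as a bar. Filled circles passed the adjusted p threshold of 0.05: 3 class II genes, no other pathway gene by its brightest probe, and 7 marker genes.

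Markers of antigen-presenting cells and of T cells were among the genes that differed between the ages. Over all genes tested, 1.98% passed as higher and 1.40% as lower with limma. Of 7 tested dendritic cell markers 3 rose and 0 fell: the integrin Itgax (0.99 ± 0.13, limma adjusted p = 0.0111), the cytokine receptor Flt3 (0.72 ± 0.13, 0.0290) and the chemokine receptor Ccr7 (1.28 ± 0.19, 0.0149). Batf3, a transcription factor of cross-presenting dendritic cells, had -0.51 ± 0.17 (limma adjusted p = 0.173, unadjusted p = 0.0170), with every aged array below every young array. Zbtb46, from the same list, had -0.09 ± 0.16, and its other probe 0.07 ± 0.24. Of the 7 dendritic cell markers, 5 had changes above 0 and 2 below. Of 9 tested macrophage markers 1 rose, the complement gene C1qc (0.68 ± 0.14, adjusted p = 0.0462), and the list's median change was 0.36. Of 5 tested B cell markers 1 rose, Ms4a1 (1.35 ± 0.28, adjusted p = 0.0448), with a median of -0.09, and of 6 T cell markers 2 rose, Cd3d and Cd28, with a median of 0.78. None of the 5 endothelial and 9 epithelial markers passed with limma, with 0 and 1 at an unadjusted p under 0.05. At that level 7.97% of all genes were higher and 9.18% lower.

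The summed signal of the 10 class II genes, in units of each array's 75th percentile, ranged from 57.8 to 66.1 on the aged arrays and from 44.4 to 49.2 on the young arrays. That of the 9 macrophage markers ranged from 56.4 to 67.7 on the aged and 46.8 to 54.3 on the young arrays. The brightest Itgam probe made up its largest part. That probe had log2 4.94, 5.11 and 5.30 on the aged and 4.85, 5.05 and 4.95 on the young arrays. The other Itgam probes were too dim to test. The 8 dendritic cell markers summed to 2.18 to 2.40 on the aged and 1.35 to 1.84 on the young arrays. Cd68, also listed for macrophages, had no named probe. The summed signal of the 8 B cell markers ranged from 3.00 to 4.98 on the aged and 3.93 to 5.02 on the young arrays. Cd22, with a log2 change of -0.33 ± 0.25, made up its largest part. Of the 5 tested B cell markers, 2 had changes above 0 (Ms4a1 1.35 and Cd79b 0.87) and 3 below. The 6 T cell markers summed to 1.14 to 1.64 on the aged and 0.65 to 0.92 on the young arrays. Every marker in these lists was well above background on at least 1 array. The mean log2 signal of the macrophage, dendritic cell and T cell lists was lowest on young array 1, as was that of the class II genes. Young array 1 was also lowest for the adipocyte, interferon-gamma, class II turnover and costimulation lists. Centred on its mean over the 6 arrays, the adipocyte list had -2.13, -0.95 and -0.02 on young arrays 1, 2 and 3. The B cell list was lowest on young array 2. The part of macrophages, dendritic cells, T cells, B cells and adipocytes in the class II differences was not tested. The 4 adipocyte markers summed to 6.35 to 8.12 on the aged and 0.86 to 4.83 on the young arrays. None of the 3 tested passed with limma, and all 3 were higher at an unadjusted p under 0.05, as were 7.97% of all genes.

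**Figure D5:**
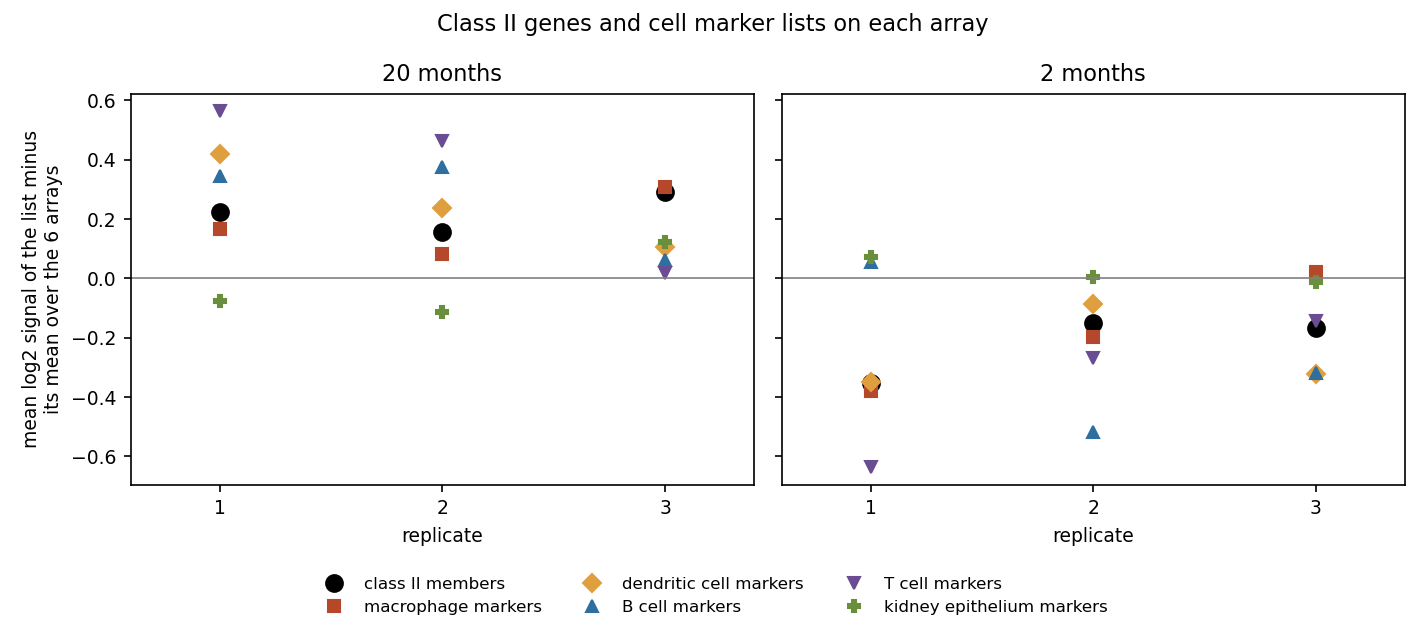
Mean log2 signal of the class II genes and of 5 cell marker lists, each minus its mean over the 6 arrays, on the aged (20 months, left) and young (2 months, right) arrays. The class II genes are at 0.16 to 0.29 on the aged and -0.35 to -0.15 on the young arrays, near the macrophage markers except on young array 3, and the kidney epithelium markers stay within -0.11 to 0.12.

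In the RefSeq gene order the 7 class II chain genes lie in 1 stretch of chromosome 17 that holds 14 genes, 13 of them protein coding, while Ctss, Ciita and Cd74 lie on chromosomes 3, 16 and 18. Of the genes in this stretch that are not among the 10, 6 were tested, and with limma 0 passed in either direction, with 3 higher and 0 lower at an unadjusted p under 0.05. These 3 were H2-DMb2 and the immunoproteasome genes Psmb9 (0.34 ± 0.14, adjusted p = 0.271) and Psmb8 (0.29 ± 0.12, adjusted p = 0.276), and Brd2, next to H2-DMa, had a log2 change of -0.15 ± 0.13. At an unadjusted p under 0.05, 7.97% of all genes were higher and 9.18% lower. The stretch was chosen by position after the class II values were known.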

How the data were processed

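Random nonamers and Klenow enzyme put Cy3 into the kidney samples, per the labels' protocols, so either strand can carry label. Per the file headers, arrays of design 028005 (mm9 annotation) were scanned at 3 micron and quantified with Feature Extraction 11.5.1.1. The deposited processed signal is an intensity on a linear scale, background-subtracted and detrended within each array and not scaled between arrays. The values that the authors deposited beside the scans are log2 values and differ from the log2 processed signal by 1 constant per array for all 55249 probes with a single spot, which puts the 75th percentile of each column at 0, so their scale and direction are known. The column medians ran from -4.24 to -3.98.

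Control and outlier spots were left out, log2 values were averaged over spots of the same probe, and each array's 75th percentile (2702 to 4498 on aged, 2892 to 4366 on young arrays) was subtracted. No spot was saturated. Probes were named through RefSeq transcripts (GRCm38.p6, names only): 26762 had 1 symbol, 28919 none and 0 several. A gene was its brightest probe, tested if every array of 1 age or both had it well above background. Ages were compared with limma (2-sided, Benjamini-Hochberg over all genes). All changes are aged minus young. The named genes were the 10 genes, up to 3 per other pathway list with the smallest p, and the 5 most similar profiles. One gene that this rule names is not reported here. Genes, lists and tests were chosen with earlier results of these data known. After the 75th percentile was subtracted, the gene values of same-numbered arrays did not deviate together (correlations 0.06, -0.09 and 0.10). The 75th percentile itself was lowest on replicate 3 at both ages, at 2702 aged and 2892 young. The fit was tested on simulated data. Alternatives were the normalisation, background, filter, probe, variance, weight, block and leave-one-out settings of the closing section. Normexp (offset 50) used the median spot signal, as the files hold no mean. Software was R 4.3.3, limma 3.58.1, jsonlite 2.0.0, 1.17.8 of data.table, Python 3.11.15, matplotlib 3.10.9, pandas 2.3.3 and numpy 2.4.6.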

Additional observations from a re-analysis of the deposited data

How the results depend on the processing

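The class II genes past the threshold numbered 3. Normexp background correction left 1, the replicate block (the slide column, or replicate number, as a fixed term) 1 and no filter on dim probes 0 (7 at an unadjusted p under 0.05), and leaving out 1 array gave 0 to 3. Quantile normalisation, the authors' values, a filter on all 6 arrays, kept outlier spots and array weights gave 3, median centring and the mean of a gene's probes 2, and a trended robust variance 4. The change of 9 of the 10 genes was above 0 in all 17 alternatives, and that of Ciita in 16. Of the 17, H2-DMa kept its call in 14, H2-Oa in 10 and Ctss in 7. The replicate block left H2-DMa at an adjusted p of 0.0376 and put H2-Oa at 0.0517 and Ctss at 0.0597. Over all genes 491 passed, 288 higher and 203 lower. Median centring gave 800 (433 higher, 367 lower), normexp 308 (216 higher, 92 lower), the replicate block 266, no filter 16, and leaving out 1 array 141 (without aged replicate 2) to 922 (without aged replicate 1). The cause of these shifts was not tested. The difference in change between H2-Oa and H2-Ob was 0.38, 0.11 with normexp and, in settings chosen after seeing the data, 0.17 with the other H2-Ob probe and 0.28 with the mean of its probes. With 3 arrays per age, changes near 0.4 did not pass.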
